A study of Rattus norvegicus with 61 samples.

Results

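The 100 transcripts described here were the ones that stood highest in sorted splenic B cells while being listed near 0 in liver. They were chosen on their measured levels, expressed as counts scaled to a common sample total (CPM, the value divided by the column sum and multiplied by 1000000). A transcript qualified when its mean over the 15 livers was below 1 CPM, its mean over the 6 B cell samples was at least 2 CPM, and (B mean + 1)/(next highest sorted mean + 1) exceeded 1.5. Of 31196 transcripts in the table, 321 met both conditions on the sorted cells, 219 of these also met the liver limit, and the 100 with the highest ratio were kept.

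All animals were male wild-type Sprague-Dawley rats, 6 weeks old by the methods, and the labels do not say whether replicates within a group were separate animals, so p-values may measure only technical spread. The 6 immune cell types were sorted, each with 6 samples: B cells (CD45+/CD11b-/CD3-/CD45RA+), NK cells (CD45+/CD11b-/CD3-/CD161+), CD4 T cells (CD45+/CD11b-/CD3+/CD4+) and CD8 T cells (CD45+/CD11b-/CD3+/CD8a+) from spleen, and monocytes (Mon) and neutrophils (Neu), both CD45+/CD11b+/CD3-/CD45RA-/CD161- and split by CD43 and side scatter, from blood. Whole spleen and whole blood cells (WBC), both after red cell lysis, had 5 samples each. Perfused livers, 5 per group, were taken 24 h after gavage of 0.5% methylcellulose (vehicle, Ctrl), 3 g/kg acetaminophen (APAP) or 300 mg/kg methylene dianiline (MDA), given after an overnight fast. Sample totals ran from 3429971 to 14146402 estimated counts, with the lowest in a neutrophil sample.

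B cells are the lymphocytes that carry surface immunoglobulin and give rise to antibody-secreting plasma cells. They fill the follicles and marginal zone of the spleen, circulate in blood, and are also found in liver. Because the files give Ensembl transcript identifiers without gene names, and 0 of them matched the list of 47357 rat RefSeq genes, neither the genes nor known B cell markers could be looked up. The label "B cell" therefore rests on the sort and on the choice of the transcripts, and was not checked against named markers. For the same reason no sequence is shown.

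The B cell transcripts differed more in abundance than in specificity. Their B cell means ran from 2.50 to 1291 CPM with a median of 39.0 CPM, with 20 transcripts at 100 CPM or more and 17 under 10 CPM. The 5 most abundant held 38.5% of the summed B cell level. The ratio that chose them ran only from 1.83 to 3.05, with a median of 2.03. The same rule gave median ratios of 3.98 for the 100 transcripts of NK cells, 3.36 for monocytes and 5.93 for neutrophils, while CD4 and CD8 T cells had 59 and 20 qualifying transcripts with medians of 1.80 and 1.86. The last 2 transcripts inside the list had ratios of 1.835 and 1.833, and the first 2 outside it 1.829 and 1.815.

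ENSRNOT00000047970 had the highest ratio, 3.05. Its B cell samples were at 13.0, 11.9, 15.4, 7.26, 12.7 and 6.39 CPM for replicates 1 to 6. NK cells were at 7.05, 1.47, 3.16, 1.40, 4.73 and 0 CPM. It was listed at 0 in all 12 blood myeloid samples. The B and NK ranges overlapped, since the highest NK sample stood above the lowest B sample. In liver it was listed above 0 in 2 of 15 samples, at 0.700 CPM in vehicle replicate 5 and 0.336 CPM in MDA replicate 2. The next in ratio, ENSRNOT00000081817 at 3.01, rested on 2 B cell samples, with 31.2 CPM in replicate 1, 11.5 CPM in replicate 6 and 0 in the other 4.

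Uneven detection of that kind was rare in the list. Of the 100 transcripts, 94 were above 0 in every B cell sample, and 5 had most of their B cell signal in a single sample. B replicate 2 was the highest B sample for 77 of them. For 12 transcripts all 6 B cell samples lay above all 30 samples of the other sorted types, and for 48 exactly 5 did. These counts describe the selection and are no test of it. The most abundant transcript, ENSRNOT00000027254, named after its values were seen, was among the 12. It had 902 to 1715 CPM in B cells, 257 to 839 CPM in NK cells, 172 to 790 CPM in CD4 T cells, 216 to 868 CPM in CD8 T cells, and 69.2 to 216 CPM in the myeloid samples.

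**Figure D1:**
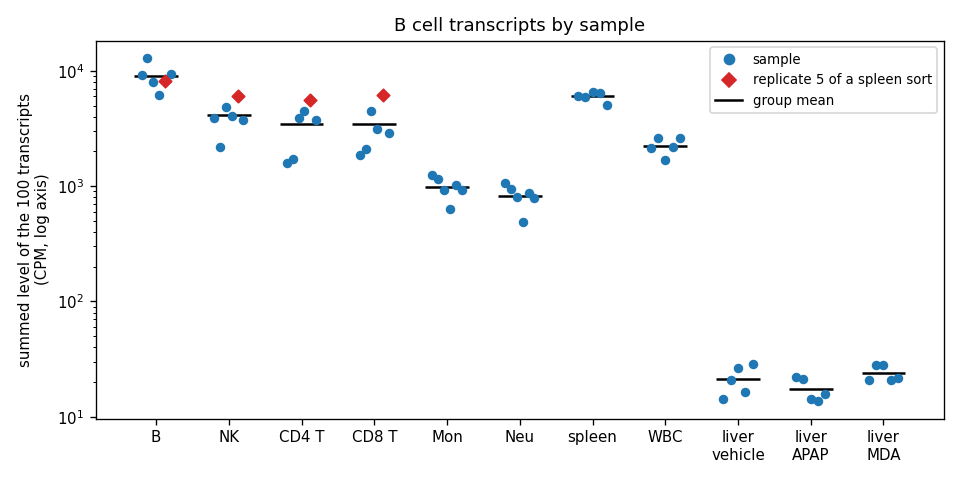
Summed CPM of the 100 B cell transcripts (log axis) in each of the 61 samples, by group; points are samples, red diamonds are replicate 5 of the spleen sorts, and bars are group means. B cells had 6136 to 12971 CPM, the other spleen sorts 1580 to 6222 CPM, the myeloid sorts 486 to 1255 CPM and the livers 13.6 to 28.8 CPM.

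Summed over the 100 transcripts, the level fell into a clear order of tissues but not of splenic lymphocytes. B cells held 8957 ± 2276 CPM (SD, n = 6) and whole spleen 5999 ± 598 CPM (n = 5). NK cells held 4143 ± 1285 CPM, CD4 T cells 3490 ± 1559 CPM and CD8 T cells 3453 ± 1643 CPM (each n = 6). WBC followed at 2249 ± 395 CPM (n = 5), then monocytes at 981 ± 218 CPM and neutrophils at 827 ± 197 CPM (each n = 6). Neighbours in this order overlapped in their samples from B cells down to WBC, and again between monocytes and neutrophils. WBC, from 1681 CPM upward, did not overlap the monocytes, which reached 1255 CPM. The livers lay far below all other groups, as the rule required of their mean.

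The levels in the other spleen sorts varied little over the list. The rule used these means and set an upper limit on them relative to B cells, so the shares below describe the selection. The median transcript stood at 44.7% of its B cell mean in NK cells (interquartile range 40.6 to 48.9%), at 39.0% in the CD4 T sort (34.9 to 43.7%) and at 38.4% in the CD8 T sort (34.4 to 42.4%). NK was the next highest type for 77 transcripts, CD4 T for 15, CD8 T for 5, monocytes for 2 and neutrophils for 1. For 91 transcripts both myeloid means lay below all 3 other splenic means. The median was 10.5% of the B mean in monocytes and 8.98% in neutrophils. For 2 transcripts NK, CD4 T and CD8 T were each under 25% of B.

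In each of the 18 NK and T cell samples the 100 log2 levels followed the B cell means closely, with Pearson's r from 0.905 to 0.954 across transcripts, against 0.896 to 0.955 for the B samples themselves. Transcripts are not independent replicates, and all points share a library and its depth, so r is given as a description. The rule also used these means. The ratio of B to the next highest type spanned only 1.83 to 3.05, while the B means spanned 2.50 to 1291 CPM. A high r therefore follows largely from how the list was made. The monocyte and neutrophil samples had r from 0.721 to 0.889. Whether the NK and T cells made these transcripts or the sorted samples held B cells or their RNA cannot be told apart in these bulk samples, and likewise fewer cells of a type cannot be told apart from less RNA per cell.

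**Figure D2:**
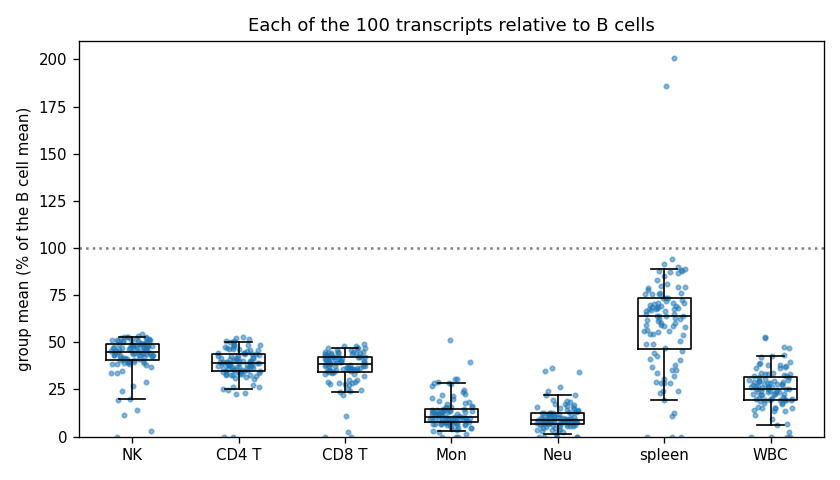
Group mean of each of the 100 transcripts as a percent of its B cell mean; points are transcripts, boxes span the quartiles with the median, and whiskers run from the 5th to the 95th percentile. NK, CD4 T and CD8 T medians were 44.7, 39.0 and 38.4%, spleen 63.9% and WBC 25.4%, and 2 transcripts had a spleen mean above their B cell mean (dotted line).

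Replicate 5 of the NK, CD4 T and CD8 T sorts held more of the B cell transcripts than the other replicates of its type, and these samples also held more of some other lists. The summed level in NK replicate 5 was 6058 CPM, against 2193 to 4882 CPM in the other 5 NK samples. CD4 T replicate 5 had 5558 CPM against 1580 to 4440 CPM. CD8 T replicate 5 had 6222 CPM against 1857 to 4493 CPM. Each was the highest sample of its type, and CD8 T replicate 5 stood above the lowest B sample at 6136 CPM. B replicate 5 itself, at 8096 CPM, lay inside the range of the other B samples.

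The rise was shared by most of the list. How often replicate 5 was highest among all transcripts was not counted, so the counts below do not set the list apart from other transcripts. Replicate 5 stood above all 5 other samples for 70 of the 100 transcripts in the NK sort, 67 in the CD4 T sort, 74 in the CD8 T sort and 4 in the B sort. The median transcript was 1.58 times the mean of the other replicates in NK, 1.75 times in CD4 T and 2.07 times in CD8 T. ENSRNOT00000027254, the most abundant, read 839 CPM in NK, 790 CPM in CD4 T and 868 CPM in CD8 T replicate 5, where the other 15 samples of these types ended at 778 CPM. ENSRNOT00000084433, also named after its values were seen, was the clearest case. It read 133, 163, 127 and 164 CPM in B, NK, CD4 T and CD8 T replicate 5, against 1.21 to 62.8 CPM in the other NK and T cell samples.

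Of the lists made by the same rule for the other types, each of these samples held the least of its own. NK replicate 5 had 1182 CPM of the NK list against 3350 to 9038 CPM in the other NK samples. CD4 T replicate 5 had 582 CPM of the CD4 T list against 701 to 1287 CPM, and CD8 T replicate 5 had 169 CPM of the CD8 T list against 329 to 540 CPM. The monocyte and neutrophil lists were at their highest in these samples. The monocyte list had 793 CPM in NK (others 524 to 600), 644 CPM in CD4 T (278 to 435) and 684 CPM in CD8 T (308 to 543). The neutrophil list had 521 CPM in NK (354 to 437), 417 CPM in CD4 T (142 to 357) and 464 CPM in CD8 T (216 to 383). The NK list was highest in CD4 T replicate 5, at 713 CPM against 416 to 550 CPM, and in CD8 T replicate 5, at 899 CPM against 475 to 751 CPM. The T cell lists were mixed: the CD4 T list was highest of its type in NK replicate 5 and lowest in CD8 T replicate 5, and the CD8 T list was lowest in CD4 T replicate 5. The higher level in replicate 5 was therefore not limited to the B cell list.

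Within replicate number 5 the median ratio of B to the next sorted type was 1.21, with 8 transcripts above 1.5 and 20 below 1. Without number 5 the median ratio was 2.28 and all 100 transcripts stayed above 1.5.

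Replicate 5 had the highest summed level in the NK and T cell sorts but was not the only uneven number. In both T cell sorts numbers 1 and 2 held the least (1580 and 1726 CPM in CD4 T, 1857 and 2109 CPM in CD8 T), and in NK cells number 2 held the least. B replicate 2 held the most of all samples at 12971 CPM and B replicate 4 the least of the B samples at 6136 CPM. Within number 2 the median ratio was 4.47. Within number 4 it was 1.19, slightly below the 1.21 of number 5, with 31 transcripts above 1.5 and 29 below 1. When the list was made without number 5, 269 transcripts passed the 3 conditions instead of 219, and 88 of the 100 highest were shared.

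**Figure D3:**
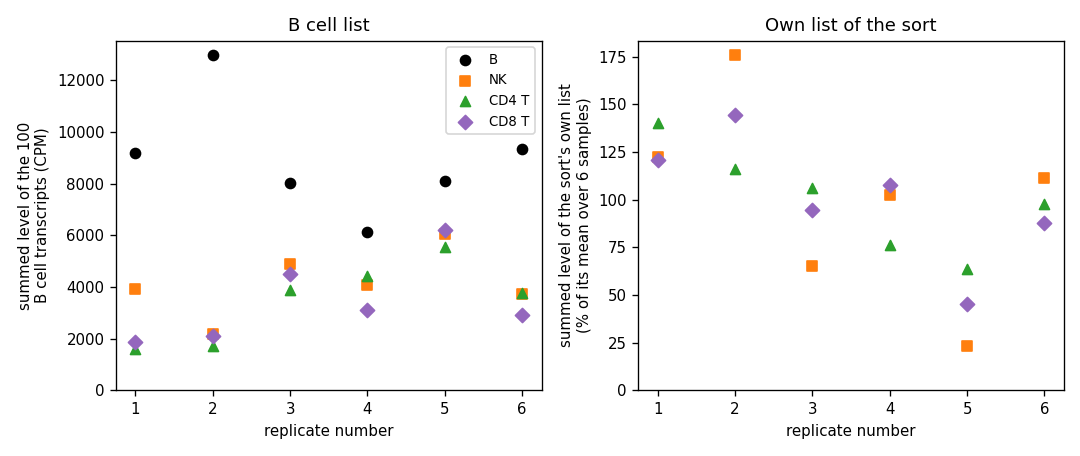
Left, summed CPM of the 100 B cell transcripts in each spleen sort by replicate number; right, the summed level of the NK, CD4 T and CD8 T lists in their own sorts, as a percent of the mean over the 6 samples. At number 5 the NK, CD4 T and CD8 T samples had 6058, 5558 and 6222 CPM of the B cell list, each the highest of its type, and each had the least of its own list.

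The spleen and WBC samples themselves were not used in choosing the transcripts. The rule did set B cells sorted from spleen above monocytes and neutrophils sorted from blood, so the comparison of spleen with WBC is not independent of it. This comparison asks how the B cell transcripts differ between both immune tissues. They were mostly higher in spleen. The summed level was 6102, 5913, 6508, 6451 and 5024 CPM in the 5 spleens and 2122, 2639, 1681, 2193 and 2610 CPM in the 5 WBC samples, without overlap. The median transcript stood at 63.9% of its B cell mean in spleen (interquartile range 46.4 to 73.6%) and at 25.4% in WBC (19.5 to 31.7%).

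Of the 95 transcripts that passed the filter of a mean of 1 CPM, 69 (72.6%) were higher in spleen by edgeR's quasi-likelihood test at a Benjamini-Hochberg adjusted p under 0.05, against 22.7% of all 13885 transcripts tested. Another 3 (3.16%) were lower, against 23.9% of all tested, and 23 were not called. The median log2 fold change over the 95 was 1.13 (interquartile range 0.51 to 1.66), beside 0.02 over all transcripts. For 64 of the 95 all spleens lay above all WBC samples, where 27.3% of all tested did, and for 0 of them all spleens lay below, where 10.2% of all tested did. Without TMM scaling the median over all transcripts shifted to 0.18 and the B cell transcripts' to 1.29, with 71 higher and 0 lower; the share of all calls that were higher went from 48.8% to 70.5%.

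Most of the differences were moderate in size: of the 69 higher transcripts, 55 had a log2 fold change between 0.5 and 2 and 12 exceeded 2. ENSRNOT00000027254 read 741 to 1121 CPM in spleen and 291 to 484 CPM in WBC, a log2 fold change of 1.01 ± 0.17 (SE, n = 5 and 5, edgeR adjusted p = 0.000598). Both transcripts with the largest fitted changes were listed at 0 in all 5 WBC samples, so no fold is given. They passed the filter on the mean only through spleen, the group in which they were called higher, so these calls are not independent of the filter. ENSRNOT00000086580 had 0.930, 2.65, 3.21, 3.38 and 9.13 CPM in spleen (edgeR adjusted p = 0.00165). ENSRNOT00000081817 had 3.15, 0, 2.56, 14.2 and 0 CPM in spleen (edgeR adjusted p = 0.0403). Its call was lost when spleen replicate 1 or 3, or any 1 WBC sample, was left out and with limma. The adjusted p ran from 0.0165 to 0.0693 over the edgeR, DESeq2 and limma alternatives that could be fitted. Without spleen replicate 4, its highest spleen, the transcript fell below the filter and had no test. Its spleens overlapped WBC at 0, whereas those of ENSRNOT00000086580 did not.

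A pair of transcripts, picked for this after their values were seen, had a spleen mean above their B cell mean. ENSRNOT00000084433 read 382 and 447 CPM in spleens 1 and 2, but 36.2, 24.9 and 30.2 CPM in spleens 3 to 5 and 1.62 to 9.91 CPM in WBC. Its B cell samples ran from 25.1 to 167 CPM, below spleens 1 and 2. ENSRNOT00000080091 read 67.6, 0, 117, 6.69 and 0 CPM in spleen and had 115 CPM in B replicate 2 but at most 5.41 CPM in the other B samples. Both were uneven between samples of 1 group.

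The 3 transcripts lower in spleen were lower by small amounts. ENSRNOT00000081202 had 12.01, 13.6, 12.7, 19.4 and 7.56 CPM in spleen and 18.8, 19.3, 17.7, 19.9 and 15.1 CPM in WBC, a log2 fold change of -0.64 ± 0.20 (SE, edgeR adjusted p = 0.0221). ENSRNOT00000077630 had 5.12, 5.59, 3.96, 7.24 and 2.64 CPM in spleen and 7.98, 4.85, 7.17, 7.49 and 7.28 CPM in WBC, a log2 fold change of -0.67 ± 0.24 (SE, edgeR adjusted p = 0.0387). The groups overlapped for both. Neither passed without TMM, with limma or without spleen replicate 1, and the call of ENSRNOT00000077630 was also lost without spleen replicate 2, 3 or 5 or WBC replicate 1, 3, 4 or 5 and with the replicate number as a block (adjusted p over all alternatives 0.00271 to 0.0734 for the first and 0.0123 to 0.112 for the second).

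The transcripts that were not higher in spleen held relatively more signal in the blood sorts. As a median, the 69 higher ones stood at 8.72% of their B mean in monocytes and 8.31% in neutrophils, the 23 without a call at 14.3 and 12.2%, and the 3 lower ones at 18.9 and 17.3%. In WBC these classes stood at 23.5, 30.1 and 32.3% of the B mean, and in spleen at 68.7, 38.0 and 24.3%. The classes were made from the spleen and WBC samples, so the order of these spleen and WBC shares follows from that choice. The classes also differed in abundance, with median B means of 58.5, 20.5 and 56.9 CPM. The WBC samples held 1972 to 4516 CPM of the neutrophil list and 1121 to 1613 CPM of the monocyte list, the spleens 541 to 897 and 763 to 993 CPM. The part of these cells in the result was not tested.

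**Figure D4:**
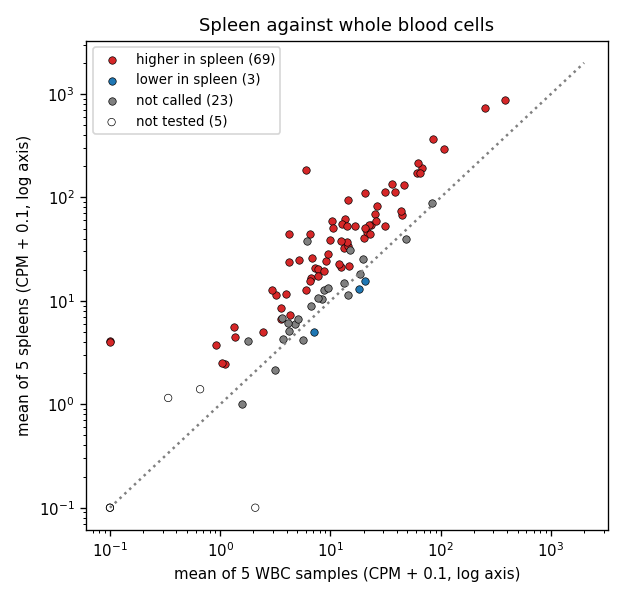
Mean level of the 100 B cell transcripts in 5 spleens against 5 WBC samples (both CPM + 0.1, log axes), coloured by the edgeR call; the dotted line marks equal levels. The 69 called higher in spleen lie above the line, the 3 called lower just below it, and 5 were not tested.

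In liver the B cell transcripts were at the edge of detection. The median transcript had a group mean of 0.060 CPM after vehicle, 0.048 CPM after APAP and 0.078 CPM after MDA. Of the 100, 16 were listed at 0 in all 15 livers and 11 were above 0 in all of them, and a liver held 31 to 47 of them above 0. Only 50 reached the mean of 0.1 CPM needed for testing. The limit of 1 CPM on the mean of all livers also kept out any transcript that a treatment raised far, so the tests speak for what remained.

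The summed level did not separate the groups: 14.2, 20.7, 26.4, 16.5 and 28.8 CPM after vehicle, 22.3, 21.1, 14.4, 13.6 and 15.6 CPM after APAP, and 20.9, 28.1, 28.3, 20.7 and 21.5 CPM after MDA. Vehicle overlapped both treatments. The 20 transcripts of 100 CPM or more in B cells, a limit set after the values were seen, are described without a test. They summed to 3.29 ± 1.44 CPM after APAP (range 1.81 to 5.45), 6.98 ± 2.30 CPM after vehicle (3.86 to 9.38) and 8.41 ± 1.73 CPM after MDA (7.24 to 11.4; SD, n = 5 each). APAP lay below MDA in every sample and overlapped vehicle. These sums correspond to 0.0537, 0.114 and 0.137% of the same transcripts' summed B cell level.

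Across the 100 transcripts, Pearson's r of a liver's log2 levels with the B cell means was 0.194 to 0.397 after vehicle, 0.000639 to 0.191 after APAP and 0.187 to 0.398 after MDA. As above, the points share libraries and many are at 0, so r is a description. In the same livers the list of neutrophil transcripts was at 8.28 to 14.15 CPM after vehicle, 17.4 to 46.7 CPM after APAP and 12.9 to 20.3 CPM after MDA. The monocyte list was at 21.1 to 29.5, 36.3 to 45.5 and 34.9 to 48.6 CPM, and the NK list at 12.1 to 23.2, 19.4 to 28.7 and 20.9 to 31.3 CPM. The part of these cells in the result was not tested.

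After APAP, 7 of the 50 tested B cell transcripts (14.0%) were lower than after vehicle by edgeR at an adjusted p under 0.05, against 15.4% of all 18427 transcripts, and 0 were higher, against 16.1%. The share of lower calls was thus near the background. By edgeR 12 of the 50 had an unadjusted p under 0.05. Over the same 50, DESeq2 called 9 lower and 0 higher, and limma, run here and below without TMM, called 6 lower and 2 higher. ENSRNOT00000034589 had 0.230, 0.363, 1.29, 1.73 and 0.661 CPM after vehicle, and after APAP 0 in 3 livers and 0.0550 and 0.0569 CPM in the others (edgeR adjusted p = 0.000773). All APAP livers lay below all vehicle livers. ENSRNOT00000086514 had 0.598, 1.31, 0.214, 0.480 and 0.476 CPM after vehicle, and after APAP 0.243 CPM in replicate 4 and 0 in the other 4 (edgeR adjusted p = 0.0412). Here 1 APAP liver overlapped the vehicle range, and leaving out any of 4 vehicle livers (replicates 1, 2, 4 and 5) or 4 APAP livers (1, 2, 3 and 5) ended the call, as did scaling without TMM and the replicate number as a block (adjusted p from 0.00918 to 0.0879 over all alternatives). No fold is given for either, since their APAP livers summed to 1.28 and 2.66 estimated counts.

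Among the 7 lower transcripts were 5 of the 15 tested that had 100 CPM or more in B cells, beside 15.4% lower among all transcripts tested. That limit was set after the values were seen, and whether this subset differs from the background was not tested. ENSRNOT00000027254, the most abundant of all, read 0.346, 1.21, 2.34, 1.17 and 0.874 CPM after vehicle, 0, 0.895, 0.141, 0 and 0.144 CPM after APAP, and 0.973, 1.14, 1.503, 0.524 and 2.38 CPM after MDA (edgeR adjusted p = 0.0136 for APAP against vehicle). The APAP and vehicle ranges overlapped through APAP replicate 2.

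After MDA, 1 of 50 (2%) was higher than after vehicle, against 7.99% of all transcripts, and 0 were lower, against 8.07%; 5 had an unadjusted p under 0.05 by edgeR, and DESeq2 called 1 higher and 1 lower and limma 2 higher and 1 lower. The higher one, ENSRNOT00000036823, had 0.0624, 0.163, 0.0672, 0.151 and 0.294 CPM after vehicle and 0.790, 1.53, 1.44, 0.388 and 0.879 CPM after MDA, without overlap, a log2 fold change of 2.11 ± 0.60 (SE, edgeR adjusted p = 0.0242) that rests on 8.54 estimated counts over the vehicle livers. After APAP it had 0.215, 0.645, 0.0747, 0.231 and 0.689 CPM. Its call was lost without vehicle replicate 1 or 3 or MDA replicate 2 or 3 (adjusted p from 0.00295 to 0.0631 over all alternatives).

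Between both treatments, 6 of 50 (12%) were lower after APAP than after MDA by edgeR, against 12.2% of all transcripts, and 0 were higher, against 12.1%, so the share of lower calls was again near the background. Among the 50, 10 had an unadjusted p under 0.05 by edgeR, and DESeq2 called 6 lower and 0 higher and limma 7 lower and 0 higher. Of the 6, 5 were also lower against vehicle; both comparisons share the APAP livers. ENSRNOT00000084246 had 0.221, 0, 0, 0 and 0 CPM after APAP and 1.11, 0, 2.49, 1.23 and 0.408 CPM after MDA (edgeR adjusted p = 0.0279). ENSRNOT00000091485 was listed at 0 in all APAP livers and had 0.863, 0.718, 0, 0 and 0.265 CPM after MDA (edgeR adjusted p = 0.0373). The groups overlapped at or near 0 for both. The first call (adjusted p from 0.00888 to 0.0696 over all alternatives) was lost without APAP replicate 2, 3, 4 or 5 or MDA replicate 3 and with the replicate number as a block, and the second (0.0258 to 0.115) without any 1 APAP liver, vehicle replicate 5 or MDA replicate 5, with limma, with only the groups compared and with the block. DESeq2 gave the second no adjusted p, and without MDA replicate 1 or 2 it fell below the filter and had no test. Their APAP livers summed to 2.67 and 0 estimated counts, so no fold is given.

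Directions in liver depend on the scaling. Without TMM the median log2 change of all transcripts was 0.73 after APAP and 0.54 after MDA instead of 0.06 and 0.02, and 88.3% and 90.3% of all calls were higher instead of 51.1% and 49.7%. For APAP against MDA the median was 0.16 instead of 0.01, and 64.9% of calls were higher instead of 49.8%. The B cell transcripts then gave 4 lower after APAP, 2 higher after MDA and 5 lower after APAP than after MDA.

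**Figure D5:**
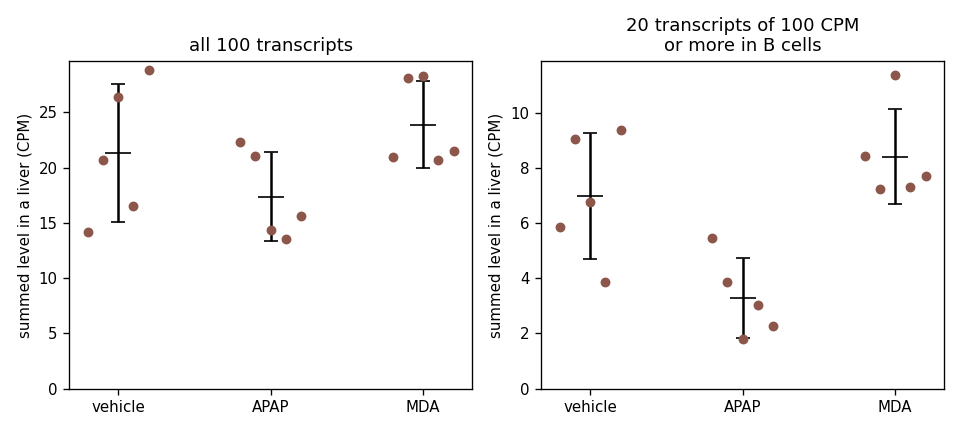
Summed CPM in each liver by treatment, left for all 100 B cell transcripts and right for the 20 with 100 CPM or more in B cells; points are livers, and bars are the mean ± SD of 5. The groups overlap on the left, and on the right APAP (1.81 to 5.45 CPM) lies below MDA (7.24 to 11.4 CPM) and overlaps vehicle (3.86 to 9.38 CPM).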

How the data were processed

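Per the labels and methods, the authors trimmed paired-end reads, quantified transcripts with Salmon 1.6.0 on Ensembl cDNA of Rnor_6.0 with GC and sequence bias correction, and imported them with tximport (R 4.1.3). The deposited values are called TPM in the methods, but column sums lie at the size of a library, so they were used as estimated counts. In 5047 low transcripts the 3 lowest values varied with an SD of 0.118 (log2) within and 1.14 between transcripts, as if length had been divided out, so levels appear to be per length.

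CPM is the value divided by the column sum, times 1000000. Members, lists and limits were chosen with earlier results of these data known. The transcripts were named by a rule: in each tested comparison the 2 with the highest and the 2 with the lowest log2 fold change among those called, and the 2 of highest ratio in the sorted cells; others are marked in the text. At most 2 per direction are named because the identifiers carry no gene names.

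Values rounded to whole numbers were tested with edgeR 4.0.16 (quasi-likelihood, TMM, Benjamini-Hochberg over all transcripts tested, threshold 0.05). Since levels appear to be per length, these values may not equal read counts. The p-values and the estimated counts in the text may therefore misstate the read support of a transcript. Spleen and WBC had a fit of their own (mean of at least 1 CPM). The 15 livers shared 1 fit (at least 0.1 CPM). On simulated counts the fits recovered 98.96% of 192 changed transcripts among 13832 (spleen minus WBC) and 87.44% of 199 among 18411 (APAP minus vehicle). Both shares are taken over all changed transcripts of a fit. Recovery at the low liver levels of the B cell transcripts was not tested. Alternatives were DESeq2 1.42.0, limma 3.58.1 on log2(CPM + 1) without TMM, other scalings and filters, and leaving out samples. Deviations of same-numbered samples correlated weakly (r from -0.01 to 0.03 in spleen and WBC, -0.29 to 0.17 in livers). APAP livers 3, 4 and 5 still correlated best with the MDA liver of their own number. APAP liver 1 did so with vehicle liver 1. The sorted samples were not examined in this way.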

Additional observations from a re-analysis of the deposited data

Results flagged for a closer look

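One sample stood apart from its group, by the gap to its nearest neighbour relative to the group's range, in 5 of 31 groups examined. The limit flags about 1 in 20 groups of normally distributed values. That rate does not hold here: a group of 5 with 4 values at 0 is always flagged. Many groups also belong to transcripts named for their extreme changes or ratios. ENSRNOT00000081817 was at 31.2 CPM in B replicate 1 and at 14.2 CPM in spleen replicate 4. ENSRNOT00000086514 was at 0.243 CPM in APAP liver replicate 4 and ENSRNOT00000084246 at 0.221 CPM in APAP liver replicate 1, with the other 4 livers of that group at 0 in each case. ENSRNOT00000077630 was lowest in WBC replicate 2, at 4.85 CPM.

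The change against the shared vehicle livers differed between APAP and MDA for 6 of the 50 tested B cell transcripts (12%), by the edgeR test of APAP against MDA. All 6 were lower after APAP. Of all 18427 transcripts tested, 12.2% were lower and 12.1% higher, so the share of lower calls was near the background. The fitted log2 difference was -4.16 for ENSRNOT00000084246 and -5.08 for ENSRNOT00000091485; since the APAP livers were at or near 0, these fitted sizes depend on the prior count and are no measured folds.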

How the results depend on the processing

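The list of B cell transcripts kept 74 to 90 of its 100 members under the 10 alternatives to the rule, with 157 to 269 transcripts passing. The count higher in spleen stayed at 66 to 71 under other settings and at 65 to 69 when 1 sample was left out. The count lower in spleen was 0 without TMM and 0 with limma, and 2 to 4 when 1 sample was left out. The limma fit also used CPM without TMM. In these 2 settings 70.5% and 71.0% of all calls were higher in spleen, against 48.8% in the main fit. The part of other differences between the methods was not tested.

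After APAP the count was 4 without TMM, and 4 to 8 when 1 liver was left out. The lowest, 4, came without vehicle replicate 1. After MDA it was 2 without TMM, with DESeq2, with only the groups compared and with the list made without replicate 5 of the sorts (an alternative added after seeing the data), 3 with limma, and 0 to 2 when 1 liver was left out. It was 0 without vehicle replicate 1 or MDA replicate 2 or 3, and 2 without APAP replicate 5 or vehicle replicate 4. Between APAP and MDA it was 3 with only the groups compared and 2 to 6 when 1 liver was left out, with 3 without APAP replicate 2 or 3 and 2 without APAP replicate 5. With the replicate number as a block the counts were 66 higher and 2 lower in spleen. They were then 5 after APAP, 1 after MDA and 3 between APAP and MDA. Whether the numbers pair the samples is not known. No direction reversed in the 9 calls named by rule or in those of ENSRNOT00000027254 in spleen and after APAP, under the alternatives that gave them a value. Liver levels rest on a few counts per transcript, which limits every liver comparison.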
